A study of Mus musculus with 12 samples.

Results

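The mRNAs of 6 chemokine receptors, Ccr2, Ccr4, Ccr8, Cxcr3, Cxcr4 and Cxcr6, were followed through antigen receptor triggering of cytotoxic T lymphocytes (CTL). They were found by gene symbol, and 5 of the 6 were measured among 11022 genes, while Ccr8 was not analysed here. The CTL were cultured mouse CD8 T cells with the transgenic P14 T cell receptor, which recognises the viral peptide gp33-41. Lymph node or spleen cells of female mice had been activated for 48 h with this peptide, with interleukin 2 (IL-2) and IL-12, and then expanded in IL-2 alone. All 4 groups shared this history and had IL-2 at 20 ng per mL. The Unstimulated group received no further peptide. The TCR group was triggered again through its receptor with the peptide at 100 ng per mL for 4 h. TCR+PI3Kdi cells were triggered in the same way with IC87114 at 10 µM, which blocks the p110δ form of the lipid kinase PI3K, and TCR+MEKi cells with PD184252 at 2 µM, an inhibitor of MEK, the kinase that activates ERK1 and ERK2. Each group held 3 biological replicates, and no inhibitor was given to Unstimulated cells. The cultures all carried 1 transgenic receptor and stood for effector cells grown in IL-2 in vitro, not for T cells in an animal.

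Chemokine receptors are membrane receptors that couple to inhibitory G proteins and steer cells along gradients of chemokines. The receptors a T cell displays help to set which tissue it can enter: CCR7 guides cells to lymph nodes, while receptors such as CCR2, CXCR3 and CXCR6 are known for directing effector T cells to inflamed tissue. Antigen receptor signals, cytokines and the forkhead factor FOXO1, which PI3K signalling restrains, are known to tune this set of receptors.

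FPKM (fragments per kilobase of exon, scaled to library size) is a level per gene length, so that genes may be compared with each other. Effective depth, estimated from the spacing of low values, was 7860000 to 13260000 reads per sample, and FPKM summed to 470420 to 666922 per sample, with the TCR samples highest. The labelled cell type was checked against markers. All 6 T cell markers had values (summed FPKM 1250 to 1426 in Unstimulated and 1594 to 1802 in the other groups), as did all 5 CTL markers, while 0 of 6 B cell and 0 of 6 erythroid markers were measured. Of 8 macrophage and monocyte markers 1 was measured, Cd68, at 4.88 to 8.44 FPKM, and the defining markers Lyz2, Csf1r, Cd14 and Adgre1 were not analysed here. The cells are a bulk culture, in which fewer cells of a type and less RNA per cell cannot be told apart.

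In Unstimulated CTL the levels of the receptors spanned a wide range. Ccr2 was the highest of the 5, at a level above that of 96.9% of all genes, followed by Cxcr6, above 86.7%. Cxcr3 and Ccr4 came next and overlapped between replicates, and Cxcr4 was the lowest, above 24.5% of genes. After TCR triggering Cxcr6 led by mean level, then Ccr2, Cxcr3, Ccr4 and Cxcr4. Cxcr3 in replicate 2 and Ccr4 in replicate 1 were both at 1.88 FPKM, and Ccr4 overlapped with Cxcr4.

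**Figure D1:**
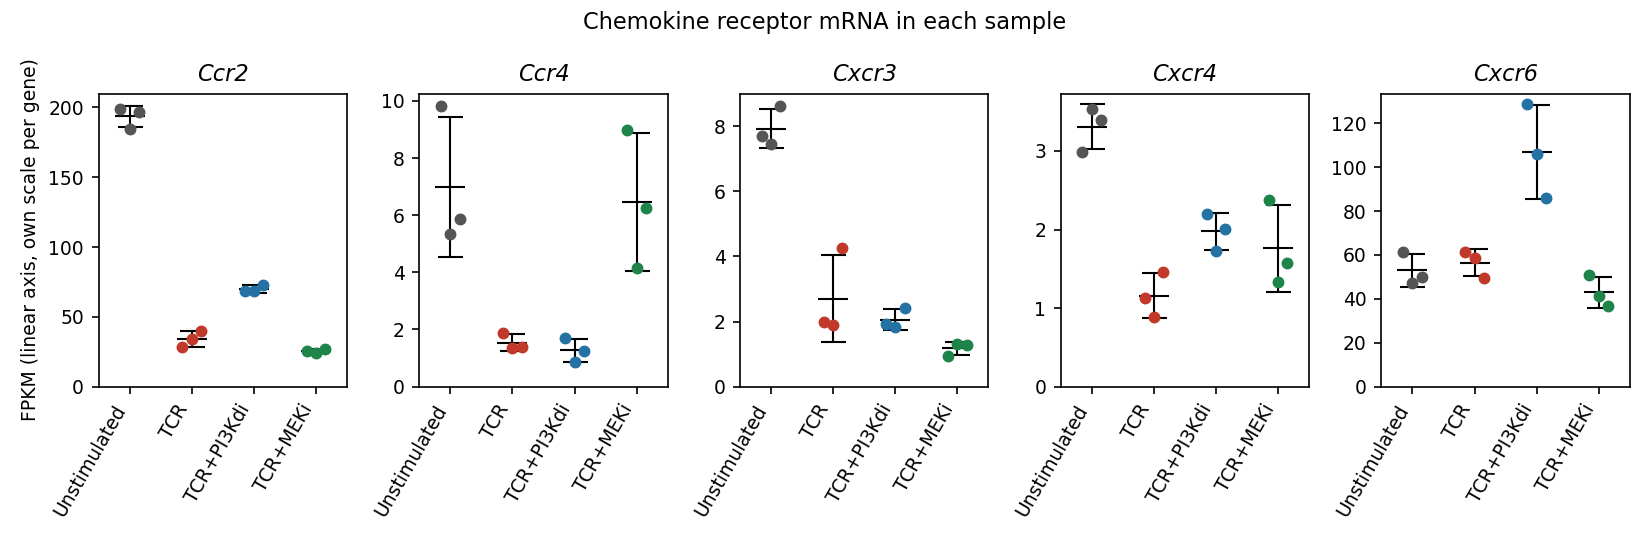
FPKM of each receptor in each of the 12 samples, on a linear axis with its own scale per gene. Points are samples, horizontal lines means and bars SD (n = 3). Ccr2, Ccr4, Cxcr3 and Cxcr4 were lower in every TCR sample than in any Unstimulated sample, Ccr4 in TCR+MEKi overlapped with Unstimulated, and Cxcr6 was highest in TCR+PI3Kdi.

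The promoters of Ccr2, Ccr4 and Cxcr6 are shown because the inhibitors moved these receptors apart from each other. RefSeq windows on GRCm38.p6, from 250 bases before to 50 bases after the transcription start, were found for all 6 receptors. They were searched on both strands for the letters GTAAACA (FOXO), GGGTG (KLF), GGAAAA (NFAT), TGANTCA (AP-1) and CACGTG (E-box). The 250 bases before the start are printed 5′ to 3′ on the strand of the gene, with matches in capitals.
Ccr2 (chr9:124101933-124102182, plus strand): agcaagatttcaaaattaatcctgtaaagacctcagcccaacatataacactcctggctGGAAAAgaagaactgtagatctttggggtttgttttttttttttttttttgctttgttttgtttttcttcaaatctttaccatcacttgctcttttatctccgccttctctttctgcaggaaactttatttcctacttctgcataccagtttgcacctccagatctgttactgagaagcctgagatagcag
Ccr4 (chr9:114496545-114496794, minus strand): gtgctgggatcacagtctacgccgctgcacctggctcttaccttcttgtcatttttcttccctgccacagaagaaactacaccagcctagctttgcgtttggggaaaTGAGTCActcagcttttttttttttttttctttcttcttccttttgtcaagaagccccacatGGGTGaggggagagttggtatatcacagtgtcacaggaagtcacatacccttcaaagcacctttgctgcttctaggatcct
Cxcr6 (chr9:123806227-123806476, plus strand): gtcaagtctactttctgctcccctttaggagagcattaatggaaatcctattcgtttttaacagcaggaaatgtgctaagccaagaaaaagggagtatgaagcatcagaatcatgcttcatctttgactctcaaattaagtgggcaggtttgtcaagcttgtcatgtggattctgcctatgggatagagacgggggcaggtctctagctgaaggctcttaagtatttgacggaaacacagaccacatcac
The capitals in Ccr2 mark an NFAT match that begins 191 bases before the start, and a further NFAT match lies after the start. In Ccr4 they mark an AP-1 match that begins 143 bases and a KLF match that begins 81 bases before the start. The Cxcr6 and Cxcr3 windows held no match, and Cxcr4 and Ccr8 each held a KLF match. No matches overlapped. Of 32851 such windows of all genes, 23.4% held the NFAT letters, 7.81% the AP-1 letters, 57.5% the KLF letters, 3.65% the FOXO letters and 7.15% the E-box letters. A match describes the sequence and is not a measured binding site. The starts are from RefSeq, while the gene positions given below are from GENCODE M21, with 4 Ccr2 and 3 Ccr4 transcripts. By those positions all the printed bases of Ccr4, and all but the first bases of Ccr2, lie inside the gene. They are therefore not upstream of every annotated start.

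The first comparison asked what antigen receptor triggering did to these receptors. Of the 5 receptors 4 fell and 0 rose, also 0 at an unadjusted p under 0.05, against 11.1% of all genes called lower and 8.87% called higher. A gene was called when limma gave a Benjamini-Hochberg adjusted p under 0.05 over all 11022 genes together with more than a 2-fold change, and log2 fold changes are on the log2(FPKM + 0.1) scale, which understates changes at low levels. The median log2 fold change of the 5 receptors was -1.61, beside -0.01 for all genes. Markers of other cells also moved with triggering. The 4 measured of 7 dendritic cell markers summed to 9.28 to 16.7 FPKM in Unstimulated and 17.3 to 22.4 FPKM in TCR, the 3 of 4 helper T cell markers to 3.32 to 4.61 and 7.89 to 9 FPKM, the 2 of 3 NK cell markers to 74.7 to 83.6 and 108 to 114 FPKM, and the 2 of 4 mast cell and basophil markers to 5.55 to 7.71 and 23.1 to 29.9 FPKM. Members of a list did not all move alike. The NK sum was carried by Eomes, which CTL also express (73.2 ± 3.72 FPKM in Unstimulated and 109 ± 3.09 in TCR). Klrb1c instead went from 5.39 ± 0.826 to 1.79 ± 0.142 FPKM. In the dendritic list Cd74 went from 1.35 ± 0.702 to 7.22 ± 0.592 FPKM and Zbtb46 from 0.0267 ± 0.00577 to 3.49 ± 0.193. H2-Ab1 went from 10.8 ± 3.13 to 8.60 ± 2.12 FPKM and Itgax from 0.410 ± 0.106 to 0.530 ± 0.111. The part of these markers in the results was not tested.

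Ccr2 (Entrez gene 12772, chromosome 9, 124101950 to 124113557, plus strand, GRCm38) encodes the receptor for Ccl2, Ccl7 and Ccl12, and its coding sequence lies in 1 exon. Its levels were 199, 185 and 197 FPKM in Unstimulated, 28.6, 34.4 and 39.7 in TCR, 68.3, 68.4 and 73.0 in TCR+PI3Kdi and 25.8, 23.9 and 27.1 in TCR+MEKi. All 4 groups were separate from each other in FPKM, but TCR and TCR+MEKi overlapped on a scale with a common FPKM sum per sample. TCR triggering took the mean from 194 ± 7.60 to 34.2 ± 5.53 FPKM (SD, n = 3), 17.7% of the Unstimulated level (log2 fold change -2.51, SE 0.09, adjusted p = 4.21e-12). Of the 100-base stretches of Ccr2 transcripts, 0.790% also occur in another gene, and 0 of those of the other 4 receptors do.

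Ccr4 (Entrez gene 12773, chromosome 9, 114490316 to 114504916, minus strand) encodes the receptor for Ccl17 and Ccl22, known for homing to skin. Its levels were 9.81, 5.33 and 5.86 FPKM in Unstimulated, 1.88, 1.34 and 1.39 in TCR, 1.69, 0.870 and 1.25 in TCR+PI3Kdi and 8.97, 4.16 and 6.24 in TCR+MEKi. Replicate 1 was the highest in every group, and the samples fell into a high pair of groups, Unstimulated and TCR+MEKi, and a low pair, TCR and TCR+PI3Kdi. Triggering lowered the mean from 7 ± 2.45 to 1.54 ± 0.298 FPKM, 22% of the Unstimulated level (log2 fold change -2.08, SE 0.28, adjusted p = 1.17e-05).

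Cxcr3 (Entrez gene 12766, chromosome X, 101731535 to 101734269, minus strand) encodes the receptor for the interferon-induced chemokines Cxcl9, Cxcl10 and Cxcl11. Its levels were 7.70, 7.46 and 8.62 FPKM in Unstimulated, 1.98, 1.88 and 4.25 in TCR, 1.93, 1.82 and 2.42 in TCR+PI3Kdi and 0.950, 1.30 and 1.29 in TCR+MEKi. TCR replicate 3 stood above the other triggered samples. The mean fell from 7.93 ± 0.612 to 2.70 ± 1.34 FPKM, 34.1% of the Unstimulated level (log2 fold change -1.61, SE 0.24, adjusted p = 2.69e-05), and the groups did not overlap.

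Cxcr4 (Entrez gene 12767, chromosome 1, 128588199 to 128592293, minus strand) encodes the receptor for Cxcl12, which retains cells in bone marrow. Its levels were 2.99, 3.54 and 3.4 FPKM in Unstimulated, 1.13, 0.890 and 1.46 in TCR, 2.20, 1.73 and 2.01 in TCR+PI3Kdi and 2.38, 1.33 and 1.57 in TCR+MEKi. Every triggered sample lay under every Unstimulated sample. The mean fell from 3.31 ± 0.286 to 1.16 ± 0.286 FPKM, 35.0% of the Unstimulated level (log2 fold change -1.46, SE 0.20, adjusted p = 1.46e-05). The TCR values rest on about 16 to 25.8 reads per sample, the fewest of the 5 receptors in that group.

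Cxcr6 (Entrez gene 80901, chromosome 9, 123806475 to 123811760, plus strand) encodes the receptor for Cxcl16 and is known from T cells that reside in tissue. It was at 61.6, 47.3 and 50.1 FPKM in Unstimulated, 61.2, 58.7 and 49.5 in TCR, 129, 106 and 86.0 in TCR+PI3Kdi and 50.9, 41.5 and 36.9 in TCR+MEKi. The Unstimulated and TCR samples overlapped, and every TCR+PI3Kdi sample lay above all samples of the other groups. With means of 53.0 ± 7.57 and 56.4 ± 6.17 FPKM, no effect of triggering was resolved (log2 fold change 0.09, 95% interval -0.21 to 0.40, adjusted p = 0.577), and the sign turned on a scale with a common FPKM sum per sample (-0.32) and after quantile normalisation (-0.01).

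The second comparison asked which receptor levels depend on PI3K p110δ. Of the 5 receptors 1 rose relative to TCR, and 0 fell, also 0 at an unadjusted p under 0.05, against 0.499% of all genes called higher and 1.38% called lower. Ccr2 reached 69.9 ± 2.66 FPKM, 36.1% of the Unstimulated level (log2 fold change 1.04, SE 0.09, adjusted p = 2.33e-06). Its call at the 2-fold limit rested on TCR replicate 1, without which the log2 fold change was 0.92. Cxcr6 stood at 107 ± 21.5 FPKM, 202% of the Unstimulated level, with a log2 fold change of 0.91 (SE 0.14, adjusted p = 0.000385) that lay inside the 2-fold limit. It passed that limit without TCR+PI3Kdi replicate 3 (1.06) and on the common-sum scale, with every sample set to the same FPKM sum (1.09). Cxcr4 was at 1.98 ± 0.236 FPKM, higher in 3 of 3 same-numbered pairs with no overlap between the groups (log2 fold change 0.74, adjusted p = 0.0153), also inside the limit. For Ccr4 (1.27 ± 0.410 FPKM) and Cxcr3 (2.06 ± 0.319 FPKM) the samples overlapped with TCR, and the 95% intervals of the log2 fold change ran from -0.89 to 0.32 and from -0.80 to 0.22. Without TCR replicate 3 the Cxcr3 value was 0.08 in place of -0.29. Relative to TCR the dendritic cell markers summed to 9.61 to 15.3 FPKM and the mast cell and basophil markers to 14.3 to 18.0 FPKM with PI3Kdi, both below all TCR samples, and their part was not tested.

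The question for the MEK inhibitor was which levels depend on ERK signalling. Among the 5 receptors 1 rose and 1 fell relative to TCR, against 0.980% of all genes called higher and 2.51% called lower. Ccr4 rose to 6.46 ± 2.41 FPKM, 92.2% of the Unstimulated level (log2 fold change 1.95, SE 0.28, adjusted p = 0.000109). Its samples overlapped with Unstimulated, and the difference from that group had a log2 value of -0.13 with a 95% interval of -0.74 to 0.48 (adjusted p = 0.715). Cxcr3 fell further, to 1.18 ± 0.199 FPKM, 14.9% of the Unstimulated level (log2 fold change -1.04, SE 0.24, adjusted p = 0.00353). This call was lost without TCR replicate 3 (-0.68), without TCR+MEKi replicate 1 (-0.91), on the common-sum scale (-0.80) and with a pseudocount of 1 (-0.71), and the TCR+MEKi values rest on about 12.9 to 21.5 reads. Ccr2 was at 25.6 ± 1.63 FPKM, under every TCR sample in FPKM, with a log2 fold change of -0.41 (adjusted p = 0.00280) inside the limit. Cxcr6 (43.1 ± 7.10 FPKM, -0.40, adjusted p = 0.0434) and Cxcr4 (1.76 ± 0.550 FPKM, 0.55, adjusted p = 0.0476) overlapped with TCR. Between same-numbered samples, TCR+MEKi was higher in 0 of 3 pairs for Cxcr6 and in 3 of 3 for Cxcr4. On the common-sum scale limma did not resolve the decrease of Ccr2 (-0.15, adjusted p = 0.229) or Cxcr6 (-0.13, adjusted p = 0.407). The Cxcr4 value on that scale was 0.79 (adjusted p = 0.00444). Removing TCR+MEKi replicate 1 took the Cxcr4 value to 0.32. With MEKi the NK cell markers summed to 73.2 to 82.0 FPKM, the helper T cell markers to 4.41 to 6.49 FPKM and the mast cell and basophil markers to 15.6 to 17.4 FPKM, all below every TCR sample, and their part was not tested.

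**Figure D2:**
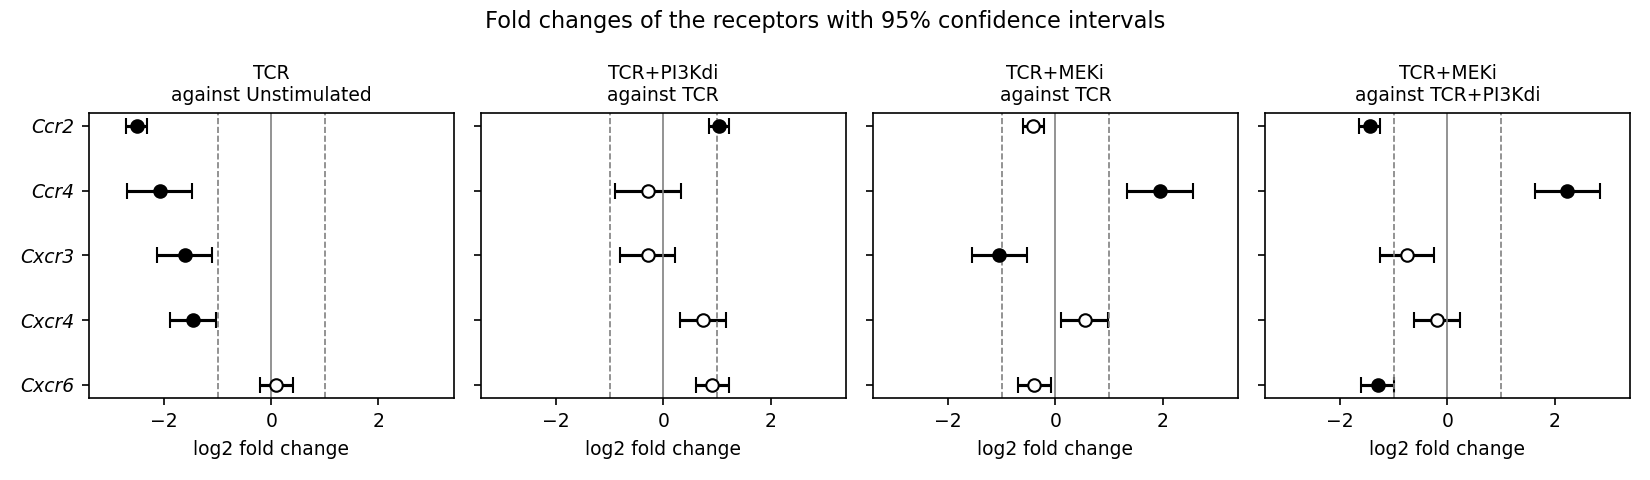
Log2 fold change of each receptor in 4 comparisons (x axis, log2(FPKM + 0.1) scale) with 95% confidence intervals from limma. Filled circles mark called differences and dashed lines a 2-fold change. Triggering lowered 4 receptors, and the inhibitors moved Ccr2, Ccr4 and Cxcr6 to different levels.

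The inhibitor groups were then compared directly, which tests whether the inhibitors differ in effect since both are read against the same TCR samples. TCR+MEKi had 1 receptor higher and 2 lower than TCR+PI3Kdi, against 1.39% of all genes called higher and 1.71% called lower. Ccr4 was higher with MEKi than with PI3Kdi (log2 fold change 2.24, SE 0.28, adjusted p = 3.60e-05), while Ccr2 (-1.45, SE 0.09, adjusted p = 3.51e-08) and Cxcr6 (-1.30, SE 0.14, adjusted p = 1.03e-05) were lower. None of these 3 overlapped between the groups, nor did Cxcr3, which was not called. The share of all genes without overlap was not computed. Cxcr3 had a log2 difference of -0.76 (adjusted p = 0.0281) inside the limit, and for Cxcr4 the 95% interval ran from -0.63 to 0.24.

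The inhibitor groups were also set against the same Unstimulated samples. TCR+PI3Kdi had 1 receptor higher and 3 lower, beside 7.16% and 7.43% of all genes. TCR+MEKi had 0 higher by limma, also at an unadjusted p under 0.05, and 2 lower, beside 6.95% and 6.46%. Ccr2 and Cxcr3 were lower with either inhibitor (log2 fold changes of -1.47 and -1.90 with PI3Kdi, and -2.92 and -2.66 with MEKi). Ccr4 was lower with PI3Kdi (-2.37, adjusted p = 4.19e-06). Cxcr6 was higher with PI3Kdi by 1.00 (adjusted p = 2.59e-05), at the limit itself. The call was lost in 4 of the 6 fits without a sample, with values of 0.86 to 1.15, and also on the common-sum scale (0.77), after quantile normalisation and with a pseudocount of 1 (0.99 in both). Cxcr4 lay inside the limit in both groups (-0.72 and -0.91), and passed it with MEKi when TCR+MEKi replicate 1 was left out (-1.14) and on the common-sum scale (-1.06).

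**Figure D3:**
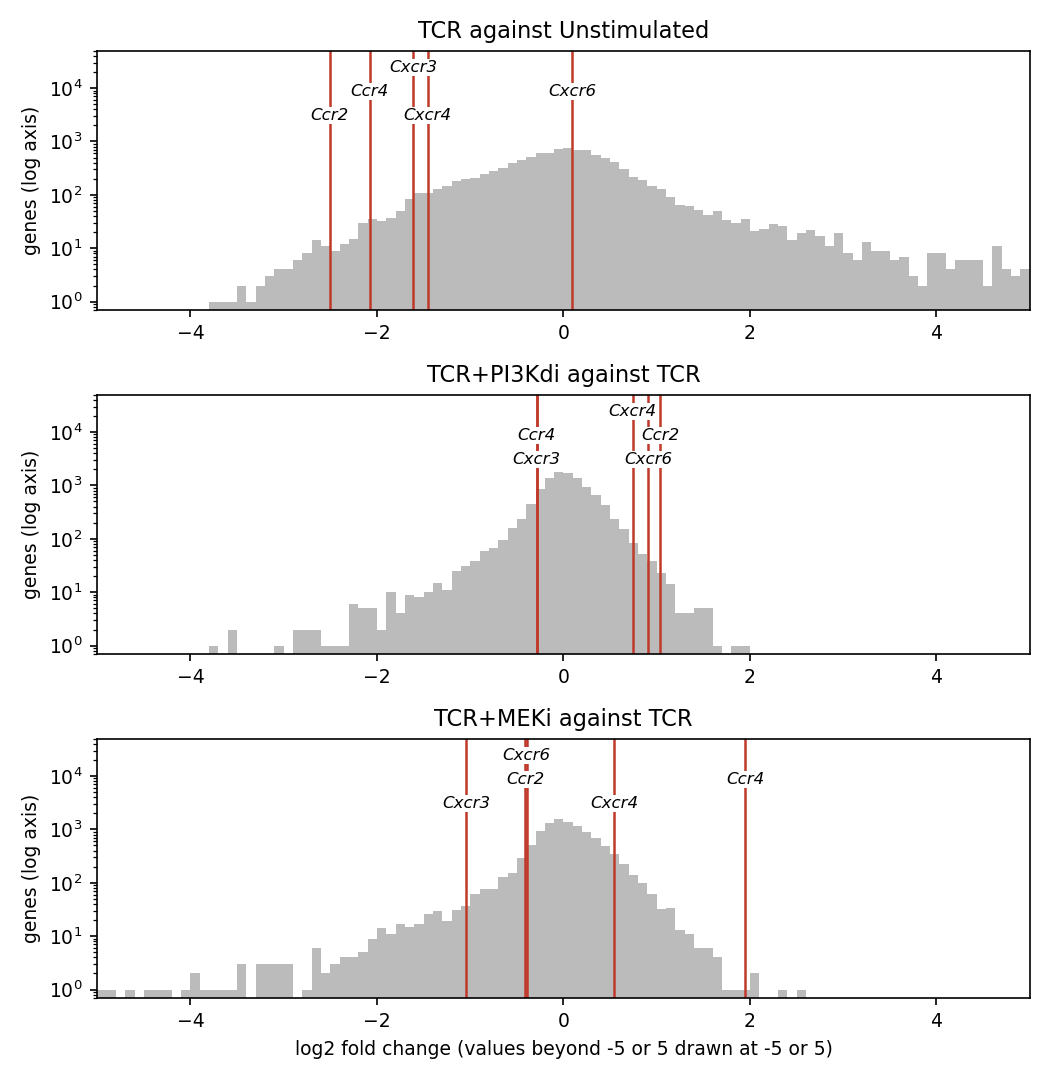
Histograms of the log2 fold change of all 11022 genes (x axis) with the number of genes per bin on a log axis, for triggering and for each inhibitor against TCR. Red lines mark the 5 receptors, of which Ccr4 at 1.95 with MEKi lay near the upper edge of all genes, and Cxcr6 at 0.09 lay at the centre after triggering.

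The other chemokine receptors were taken from a list of 16, of which 3 were measured. For calls without rescaling in this and the following lists, the shares of all genes called are those given above for each comparison. The share of all genes at an unadjusted p under 0.05 was not computed. Of these, 1 rose and 0 fell after triggering (median log2 fold change 0.62, or 0.21 on the common-sum scale), 0 were called by limma with PI3Kdi (2 at an unadjusted p under 0.05) and 1 fell with MEKi. Ccr1, a receptor for Ccl3 and Ccl5, rose from 0.907 ± 0.1 to 2.81 ± 0.211 FPKM (log2 fold change 1.53, adjusted p = 5.60e-07) and was 1.33 ± 0.254 FPKM with MEKi (-1.03, adjusted p = 0.000157, or -0.78 and inside the limit on the common-sum scale). Ccr7, the lymph node homing receptor, named here after its values were seen, was at 21.1 ± 2.39, 32.5 ± 5.06, 58.1 ± 9.88 and 44.5 ± 9.16 FPKM in Unstimulated, TCR, TCR+PI3Kdi and TCR+MEKi. Its differences from Unstimulated passed the limit with PI3Kdi (1.45) and with MEKi (1.06). On the common-sum scale the call with MEKi was lost (0.91), and the difference of PI3Kdi from TCR passed the limit (1.02, against 0.83). The atypical receptor Ccrl2, also named after its values were seen, was at 1.35 to 2.23 FPKM in the group means with no called difference.

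Summed over the 5 receptors, their mRNA was 281, 248 and 265 FPKM in Unstimulated, 94.8, 97.2 and 96.2 in TCR, 203, 179 and 165 in TCR+PI3Kdi and 88.9, 72.1 and 73.1 in TCR+MEKi. The sums of the 4 groups did not overlap in FPKM, but on the common-sum scale those of TCR and TCR+MEKi did. Ccr2 made up 73.2% ± 2.05 of the sum in Unstimulated and 35.6% ± 5.52 in TCR, while the share of Cxcr6 was 20.0% ± 1.69 and 58.8% ± 6.72. With PI3Kdi the share of Cxcr6 was 58.3% ± 5.69 and with MEKi 55.1% ± 3.96, both with samples overlapping those of TCR, and Ccr4 made up 8.13% ± 2.19 with MEKi against 1.60% ± 0.331 in TCR.

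**Figure D4:**
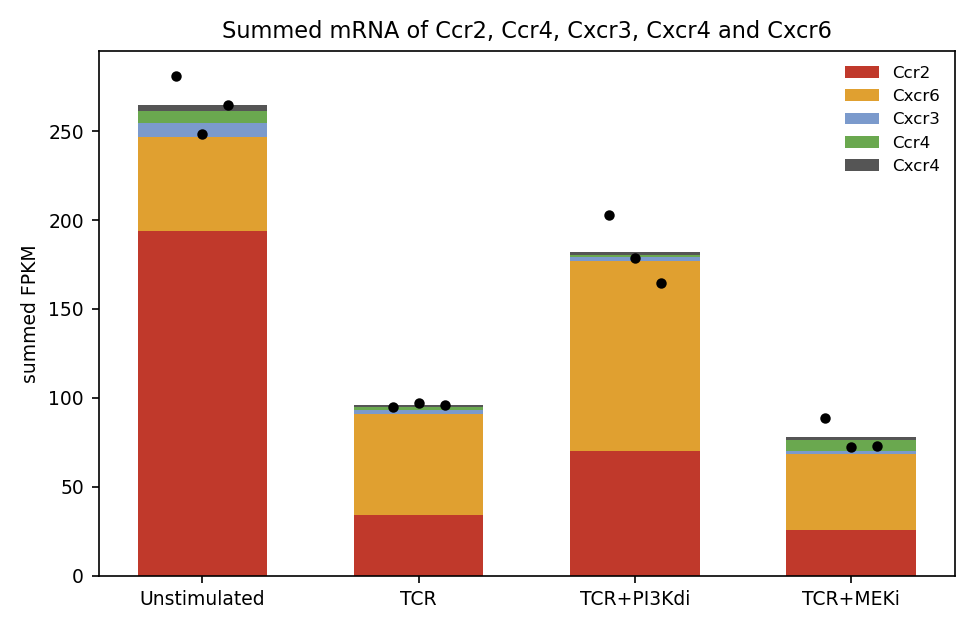
Summed FPKM of Ccr2, Ccr4, Cxcr3, Cxcr4 and Cxcr6 per group (y axis, from 0), with mean levels stacked by gene and points for the sum in each sample. The sum was near 265 FPKM in Unstimulated, where Ccr2 made up most of it, and near 96.1 FPKM in TCR, where Cxcr6 did.

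Of the chemokines that bind these receptors, 5 of 12 were measured, and all 5 rose after triggering (median log2 fold change 2.63, or 2.62 with Ccl22 and Cxcl16 set against a floor of 3 reads per Unstimulated sample). Ccl1, the ligand of CCR8, went from 0.710, 0.380 and 0.6 FPKM to 6220, 5016 and 5529 FPKM, and was 2698 ± 186 FPKM with PI3Kdi and 1651 ± 267 FPKM with MEKi. The CCR4 ligand Ccl22 was listed at 0 in every Unstimulated sample, and was at 0.690 ± 0.0608 FPKM in TCR, 0.183 ± 0.127 with PI3Kdi and at 0.0700, 0 and 0 FPKM with MEKi. Cxcl16, the ligand of CXCR6, was at 0.0300 to 0.0700 FPKM in Unstimulated, on at most 2.4 approximate reads, and at 0.803 ± 0.0321 FPKM in TCR. It was at 0.0933 ± 0.101 FPKM with PI3Kdi and 0.650 ± 0.159 with MEKi, with every MEKi sample above every PI3Kdi sample (adjusted p = 0.000242 by limma). Cxcl10, a CXCR3 ligand, rose from 1.02 ± 0.243 to 2.71 ± 0.760 FPKM (1.31, or 0.93 and inside the limit on the common-sum scale) and further to 5.47 ± 0.530 with MEKi (1.02, or 0.93 after quantile normalisation). Ccl12, a CCR2 ligand, rose from 0.8 ± 0.322 to 3.99 ± 1.17 FPKM and was 1.90 ± 0.277 FPKM with PI3Kdi. Relative to TCR, PI3Kdi lowered 4 of the 5 ligands, of which Ccl12 and Ccl1 lay inside the limit on the common-sum scale (-0.82 and -0.86) and Ccl1 also after quantile normalisation (-0.42), and MEKi lowered 2 and raised 1.

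Other receptors of lymphocyte traffic were measured for 7 of 8 genes, of which 4 fell and 0 rose after triggering (median log2 fold change -1.38), or 6 on the common-sum scale (-1.78). The integrin subunit gene Itgb7 fell from 128 ± 9.25 to 42.8 ± 2.86 FPKM, Selplg, for the selectin ligand PSGL-1, from 258 ± 10.5 to 91.5 ± 8.62, and Gpr183, an oxysterol receptor, from 13.7 ± 2.18 to 5.21 ± 0.875. S1pr1, which guides cells out of lymph nodes, was at 0.560 to 0.870 FPKM in Unstimulated and at 0.03 to 0.1 FPKM in TCR, where it rested on 0.9 to 3 approximate reads. PI3Kdi gave 0 calls by limma among the 7 (2 at an unadjusted p under 0.05). S1pr4, a sphingosine 1-phosphate receptor named after its values were seen, went from 17.1 ± 1.85 to 34.3 ± 1.61 FPKM, just inside the limit (1.00, or 1.18 on the common-sum scale and 1.01 after quantile normalisation, both past it). MEKi raised 2, Gpr183 to 10.9 ± 0.467 FPKM (1.07) and the integrin subunit gene Itga4 from 1.00 ± 0.307 to 2.65 ± 0.365 FPKM (1.35).

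Downstream of the receptors, of 20 transducer genes 2 fell and 0 rose after triggering (median log2 fold change -0.18), a share near that of all genes called lower. On the common-sum scale 4 fell (median -0.60) and after quantile normalisation 3. By limma neither inhibitor gave a call against TCR (7 and 10 genes at an unadjusted p under 0.05 with PI3Kdi and MEKi), although 1 fell with PI3Kdi after quantile normalisation, Pik3r6, for a PI3K regulatory subunit (-1.08). The 2 that fell after triggering were Pik3cg, the PI3K catalytic subunit that acts under G proteins, from 18.9 ± 1.69 to 4.88 ± 0.0954 FPKM, and the phospholipase gene Plcb2, from 16 ± 1.14 to 5.39 ± 0.8. Of 15 regulators of receptor signalling and uptake 4 rose and 3 fell (median -0.19), or 4 rose and 5 fell on the common-sum scale (median -0.59). Rgs16, Rgs2 and Rgs1, which speed the shut-off of G proteins, rose from 28.7 ± 2.75 to 938 ± 10.6, from 0.720 ± 0.171 to 19.2 ± 2.31 and from 57.8 ± 7.86 to 927 ± 33.9 FPKM. The receptor kinase gene Grk5 rose from 1.35 ± 0.142 to 3.86 ± 0.789 FPKM, while Grk6 fell from 66.9 ± 2.15 to 28.5 ± 0.833, Rgs14 from 23.4 ± 1.2 to 10.9 ± 0.475 and Rgs18 from 9.34 ± 1.98 to 1.46 ± 0.546. MEKi lowered 1 regulator, Rgs2, to 8.63 ± 0.423 FPKM (-1.14, or -0.88 and inside the limit on the common-sum scale, where instead the arrestin gene Arrb1 passed it upwards at 1.19, Arrb1 and Pik3r6 being named after their values were seen), and PI3Kdi gave 0 regulator calls by limma against TCR (10 at an unadjusted p under 0.05).

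The genes whose pattern over the 4 group means came nearest to each receptor were found by the root mean square (RMS) difference of centred log2 levels, among genes with a mean FPKM of at least 1, over 12 samples in 4 groups. Nearest to Cxcr4 were Tmem140, Frmd8 and Cenpf, with RMS differences of 0.016, 0.027 and 0.032. These lie under the SE of 0.20 of the Cxcr4 log2 fold changes, and the order of the neighbours was not tested. For Cxcr6 they were F2rl1, Cd101 and Ank (0.068, 0.13 and 0.15), and for Cxcr3 Acvrl1, Gcnt2 and Prkd2 (0.16, 0.20 and 0.20). The differences of F2rl1 and Cd101 also lie under the SE of the Cxcr6 log2 fold changes (0.14). Those of all the Cxcr3 neighbours lie under the SE for Cxcr3 (0.24). Ccr2 lay nearest to Pydc3, Tgtp2 and Tnfaip8l2 (0.20, 0.21 and 0.23). Ccr4 had the most distant neighbours, Cd226, P2ry14 and Gm98 (0.32, 0.34 and 0.35). Among the receptors themselves Ccr2 and Cxcr3 were the nearest pair, at 0.48, and Ccr4 and Cxcr6 the farthest, at 1.49.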

How the data were processed

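Paired-end RNA sequencing (TruSeq Stranded mRNA) was performed on 12 samples. Per the submitters' processing notes and the study's methods, the authors aligned reads with STAR 2.4.2a to mm10, counted them per RefSeq gene with Subread 1.5.0, removed genes with low counts, and applied TMM scaling and the RPKM function of edgeR with summed exon length. The deposited values are therefore FPKM per gene and sample, scaled by the authors, and replicates were not pooled. Whether counting used strand is not given in the sources used here. The study tested differences with limma on its counts, which were not used here.

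log2(FPKM + 0.1) of all 11022 genes in all 12 samples was fitted with limma 3.58.1 (R 4.3.3; lmFit, contrasts.fit, eBayes with trend), with 1 mean per group and 6 contrasts. Calls needed an adjusted p under 0.05 and more than a 2-fold change. Simulated data with known changes were used to check the fit. The members and lists were chosen with earlier results of these data known. Some genes of the lists are not reported here. Named list genes were those called after triggering or in an inhibitor group against TCR, at most 8 per list with the largest change first, with the ligands of the receptors; exceptions are marked as named after their values were seen. The replicates came from 3 mice, and p-values measure the spread between these samples.

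Same-numbered samples deviated together across genes in 4 of the contrasts (every pair's correlation over 0.1, for example 0.451, 0.376 and 0.239 for TCR+PI3Kdi and TCR), but not for TCR or TCR+PI3Kdi against Unstimulated (lowest pair 0.0037 and -0.062). Depth was estimated from low FPKM values and GENCODE M21 exon lengths: 34 to 49 values per sample were used, and 54.4% to 71.1% of them came within 0.15 read of a whole number (30% for random values), so reads per gene are approximate and cover counting error only. Positions are from GENCODE M21 on GRCm38 (mm10). Alternatives were pseudocounts of 1 and 0.01, a mean FPKM of at least 1, a common FPKM sum per sample (the TPM scale), quantile normalisation, a replicate block, the compared groups alone, no trend, limma treat, no fold threshold, and leaving out each sample. Python 3.11.15 was used.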

Additional observations from a re-analysis of the deposited data

Results flagged for a closer look

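For 3 receptors the effect of MEKi differed from that of PI3Kdi by limma's test of the difference itself, with Benjamini-Hochberg adjustment over all genes. The effect of MEKi minus that of PI3Kdi was -1.45 on the log2 scale for Ccr2 (adjusted p = 3.51e-08), 2.24 for Ccr4 (adjusted p = 3.60e-05) and -1.30 for Cxcr6 (adjusted p = 1.03e-05). TCR+MEKi was higher than TCR+PI3Kdi for Ccr4 in 3 of 3 same-numbered pairs, and for Ccr2 and Cxcr6 in 0 of 3. Under limma treat, which tests for a change of more than 2-fold, Ccr2 alone of these 3 kept its call.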

How the results depend on the processing

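Each of the 30 receptor values was recomputed under each alternative, 480 times in all. Direction and side of the thresholds were kept in 443, the call was lost in 20 and gained in 12, and the sign turned in 5. Cxcr6 after triggering turned on the TPM scale (-0.32) and under quantile normalisation (-0.014). Leaving out 1 sample turned Cxcr3 with PI3Kdi against TCR (range -0.49 to 0.078) and Ccr4 with MEKi against Unstimulated (-0.40 to 0.15). Under limma treat the number of receptors called was 2 of the reported 4 after triggering, 0 of 1 for PI3Kdi against TCR, 0 of 2 for MEKi against TCR and 1 of 3 for MEKi against PI3Kdi, since this test asks for a change beyond 2-fold. Without a fold threshold, 3 receptors passed for PI3Kdi and 5 for MEKi against TCR. The share of all genes passing in that way was not computed, so these 2 counts have no reference. With the fold threshold on the TPM scale, 2 receptors were called for PI3Kdi and 1 for MEKi against TCR, and with a pseudocount of 1 the MEKi count was 1. Leaving out single samples gave 0 to 2 calls for PI3Kdi and 1 to 2 for MEKi against TCR. With the replicate block the counts were 4, 1, 2, 3, 4 and 2, and no receptor gained or lost a call. The TPM scale moved the median of all genes by -0.41 after triggering, 0.19 with PI3Kdi and 0.26 with MEKi against TCR, and -0.22 and -0.15 for the inhibitor groups against Unstimulated. The share of called genes that were higher was 44.4% and 22.1% on that scale after triggering, 26.6% and 52.7% with PI3Kdi, 28.1% and 61.5% with MEKi, and 49.1% and 32.9%, and 51.8% and 39.7%, for the inhibitor groups against Unstimulated. Depth limits Cxcr4 and Cxcr3 most.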
